A study of Rattus norvegicus with 12 samples.

Results

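The genes that supply cystine and glycine for glutathione, build it, break it down, return it to its reduced form and spend it on peroxides are represented by 9 rat genes: *Slc7a11*, *Slc6a9*, *Gclc*, *Gss*, *Ggt1*, *Gsr*, *Glrx*, *Gpx1* and *Gpx4*. They form a list of names, and a probe belonged to a gene when its RefSeq accession, version ignored, carried that symbol. They are 9 of 16581 genes that could be named from a probe, or of 10741 that could be named and had a tested probe. Together they had 14 probes, of which 13 passed the filter on dim signals, and each of the 9 genes kept at least 1. Where a gene had more than 1 probe, the brightest one on average stands for the gene, and any other tested probe is given beside it for the differences from the control.

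The cells were myotubes made by fusing myoblasts of L6, a rat skeletal muscle line. They received 60 µM of GR24, pinosylvin or resveratrol for 24 h, and the control myotubes received DMSO, the solvent of GR24, for 24 h. Each of the 4 groups had 3 arrays, each from an independent experiment on the same batch of cells. The sample labels give 6 days of differentiation before treatment and the study's methods give 7. GR24 is a synthetic analog of the strigolactones, a class of plant hormones. Pinosylvin and resveratrol are plant stilbenes with the same hydroxyl groups on 1 ring, and resveratrol carries a further hydroxyl on the other ring. The comparisons ask how far the RNA of each gene differed between a compound and the control, and between compounds given at the same dose for the same time.

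Glutathione is the most abundant small thiol of animal cells and is made from glutamate, cysteine and glycine, with the joining of glutamate to cysteine as the limiting step. Its oxidised form, left when peroxides or protein disulphides are reduced, is returned to the reduced form with NADPH. In skeletal muscle it buffers the oxidants that contraction produces.

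RNA was read on 1-colour Agilent arrays with 58717 spots other than controls, of which 58.0% to 64.3% per array were well above background, and none was saturated. A level is a log2 signal from which the array's own 75th percentile was subtracted, so that 0 marks that percentile. A difference is between group means of these levels and is given with its standard error (SE) and the limma p adjusted over all 24279 tested probes. It passed the test at an adjusted p under 0.05, and 95% confidence intervals are given where it did not. With 3 arrays per group, precision is set by their number. Replicates 1 and 2 of each group shared 1 slide and replicate 3 was on another, so each comparison could also be read within a slide. The comparisons with the control share the 3 control arrays, and their values are given side by side only.

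The label of the cells was checked against marker genes. Of 12 markers of skeletal myotubes, 11 had a probe, and all 11 were well above background on all 3 control arrays. Their brightest gene was *Myh3*, the embryonic myosin heavy chain. Their summed signal, as a multiple of the 75th percentile signal, was 899, 987 and 872 on the control arrays, 405, 390 and 375 with GR24, 1000, 1050 and 973 with pinosylvin, and 793, 847 and 766 with resveratrol. With GR24 the sum was lower on every array than on any control array, and so it was with resveratrol, by less. Among the 11 genes, 8 were lower and 0 higher with GR24 (median difference -1.14), 2 were higher and 0 lower with pinosylvin (median 0.21), and 5 were lower and 0 higher with resveratrol (median -0.30). The resveratrol count was 2 without control replicate 2, without resveratrol replicate 3 or when dim probes were kept. The same count was 3 without control replicate 1, pinosylvin replicate 1 or 2 or resveratrol replicate 1, and with only the arrays compared, while with the replicate block 5 were higher with pinosylvin in place of 2. The muscle regulator *Myog* was lower with GR24 by -5.83 (SE 0.15, adjusted p 5.53e-10), the actin gene *Acta1* by -3.88 (SE 0.078, adjusted p 2.4e-10) and the creatine kinase gene *Ckm* by -2.58 (SE 0.14, adjusted p 9.64e-08), with no overlap between the arrays. *Myod1* was not well above background on any GR24 array, which puts it at least 1.86-fold lower than in the control, a bound for this background correction only, since its log2 difference was -0.63 and -0.58 with normexp before the 75th percentile or quantile normalization. In bulk RNA, fewer cells of a type and less RNA per cell cannot be told apart.

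Markers of other cell types were mostly dim. Of the leukocyte markers, *Ptprc* stayed near background on each control array, and *Csf1r* differed from the control by -0.03 with GR24 (adjusted p 0.954). *Cd68*, a lysosomal protein and the brightest gene of that list, was higher with GR24 by 2.67 (SE 0.17, adjusted p 4.11e-07) and was not past the threshold with the stilbenes. The summed leukocyte signal was 0.158, 0.204 and 0.294 on the control arrays, 0.742, 0.789 and 0.799 with GR24, 0.221, 0.218 and 0.332 with pinosylvin, and 0.176, 0.221 and 0.3 with resveratrol, so only the GR24 arrays lay apart from the control arrays. Of the neuronal markers, *Tubb3* alone was well above background on all control arrays, while *Snap25*, *Syt1* and *Rbfox3* were so on none. *Tubb3* was lower with each compound, by -0.86 with GR24 (adjusted p 2.03e-05), -0.90 with pinosylvin (adjusted p 0.000107) and -0.82 with resveratrol (adjusted p 0.000231). With normexp the GR24 difference was -0.53 with the 75th percentile and -0.50 with quantile normalization (adjusted p 0.00011 and 0.000127), with the 75th percentile the pinosylvin difference was -0.59 (adjusted p 0.000325), and with quantile normalization the resveratrol difference was -0.48 (adjusted p 0.000982). The summed neuronal signal was 0.264 to 0.289 on the control arrays, 0.157 to 0.166 with GR24, 0.144 to 0.182 with pinosylvin and 0.157 to 0.174 with resveratrol. Of the endothelial markers, *Cdh5* and *Tek* were well above background on all control arrays, *Pecam1* on none, and in the fit as given neither tested gene passed with any compound. *Cdh5* was lower with the replicate block, with GR24 (-0.44, adjusted p 0.000201) and with resveratrol (-0.25, adjusted p 0.0159), as it was within slide 1 (adjusted p 0.00178 and 0.0413). *Tek* was lower with GR24 without control replicate 1 (adjusted p 0.0146), GR24 replicate 3 (0.0331) or resveratrol replicate 3 (0.0494). *Pecam1*, which was not tested, lay the other way, at -6.15, -6.04 and -6.50 on the control arrays, -4.27, -4.47 and -4.63 with GR24 and -4.46, -4.92 and -4.39 with pinosylvin. With dim probes kept, and in the deposited values, 1 gene of the list was higher with GR24 and 1 with pinosylvin. The sum of the list was 0.262 to 0.390 on the control arrays, 0.234 to 0.341 with GR24, 0.314 to 0.414 with pinosylvin and 0.254 to 0.337 with resveratrol, with overlap between all groups and *Cdh5* brightest. Of the adipocyte markers, *Adipoq* and *Lep* stayed near background on each control array, and *Cfd*, the brightest, was higher with pinosylvin by 0.41 (adjusted p 0.0222). That call was lost with no filter (adjusted p 0.0758), with only the arrays compared (0.0771) and without control replicate 3 (0.0747) or pinosylvin replicate 1 (0.0853) or 2 (0.0706). The adipocyte sum was 1.25 to 1.51 on the control arrays, 1.26 to 1.44 with GR24, 1.68 to 2.03 with pinosylvin and 1.29 to 1.51 with resveratrol. None of the 4 hepatocyte markers, *Alb*, *Ttr*, *Apoa1* and *Serpina1*, was well above background on a control array, and *Apoa1* was the brightest. The hepatocyte sum was 0.0345 to 0.0428 on the control arrays, 0.0583 to 0.0592 with GR24, 0.0472 to 0.0949 with pinosylvin and 0.0307 to 0.0429 with resveratrol.

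With GR24, all 9 genes were higher than in the control and 0 were lower, where 31.5% of all tested probes were higher and 25.5% lower. The call of *Gpx4* was lost under 8 of 27 alternatives, given below. The median difference of the 9 was 1.14, against 0.027 over all tested probes. *Gclc*, *Ggt1*, *Glrx*, *Gpx4*, *Slc6a9* and *Slc7a11* were listed by the study as raised by GR24 on these same arrays, so the count is not independent evidence of their direction. The fall of 8 myotube markers and of the neuronal marker *Tubb3* and the higher *Cd68* stand beside this count on the same arrays, and their part in the result was not tested. Within slide 1 the differences of the 9 genes ran from 0.22 for *Gpx4* to 2.57 for *Ggt1*, and within slide 2, with 1 array per group and no test, from 0.38 to 2.67 for the same genes.

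With pinosylvin, 2 of the 9 genes, *Ggt1* and *Slc7a11*, were higher than in the control and 1, *Glrx*, was lower, where 8.28% of all tested probes were higher and 8.27% lower. The *Glrx* call was lost under 4 of 27 alternatives, among them within slide 1 (adjusted p 0.07). So few genes do not set the list apart from these shares. On the same arrays *Myog* was higher by 0.73 (SE 0.15, adjusted p 0.00654; not past the threshold within slide 1, 0.0768), *Tnnt3* by 0.54 (adjusted p 0.000919) and the adipocyte marker *Cfd* by the 0.41 given above, a call lost under 5 alternatives. *Tubb3* was lower, and the part of these markers was not tested. The median difference was 0.16, against 0.054 over all tested probes. The 3 genes differed within slide 1 and within slide 2 by 2.07 and 2.16 for *Ggt1*, 0.52 and 0.33 for *Slc7a11*, and -0.40 and -0.46 for *Glrx*.

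With resveratrol, 5 of the 9 genes were higher than in the control and 0 were lower, where 7.99% of all tested probes were higher and 8.99% lower. The 5 were *Slc7a11*, *Slc6a9*, *Gclc*, *Ggt1* and *Gsr*, a larger share than among all probes, and the median difference was 0.53, against 0.010 over all tested probes. On the same arrays 5 of 11 myotube markers were lower, among them *Ckm* by -1.04 (SE 0.14, adjusted p 0.000597), the summed marker signal lay below that of every control array, and *Tubb3* was lower. Their part in the result was not tested. The 5 genes differed within slide 1 and within slide 2 by 1.33 and 1.13 for *Slc7a11*, 0.57 and 0.44 for *Slc6a9*, 0.88 and 0.78 for *Gclc*, 1.69 and 1.84 for *Ggt1*, and 0.73 and 0.49 for *Gsr*. With the replicate number as a block, the shares of all probes higher and lower were 16.3% and 12.3% with pinosylvin and 14.1% and 13.8% with resveratrol, and *Gpx4* joined the genes past the threshold with each.

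**Figure D1:**
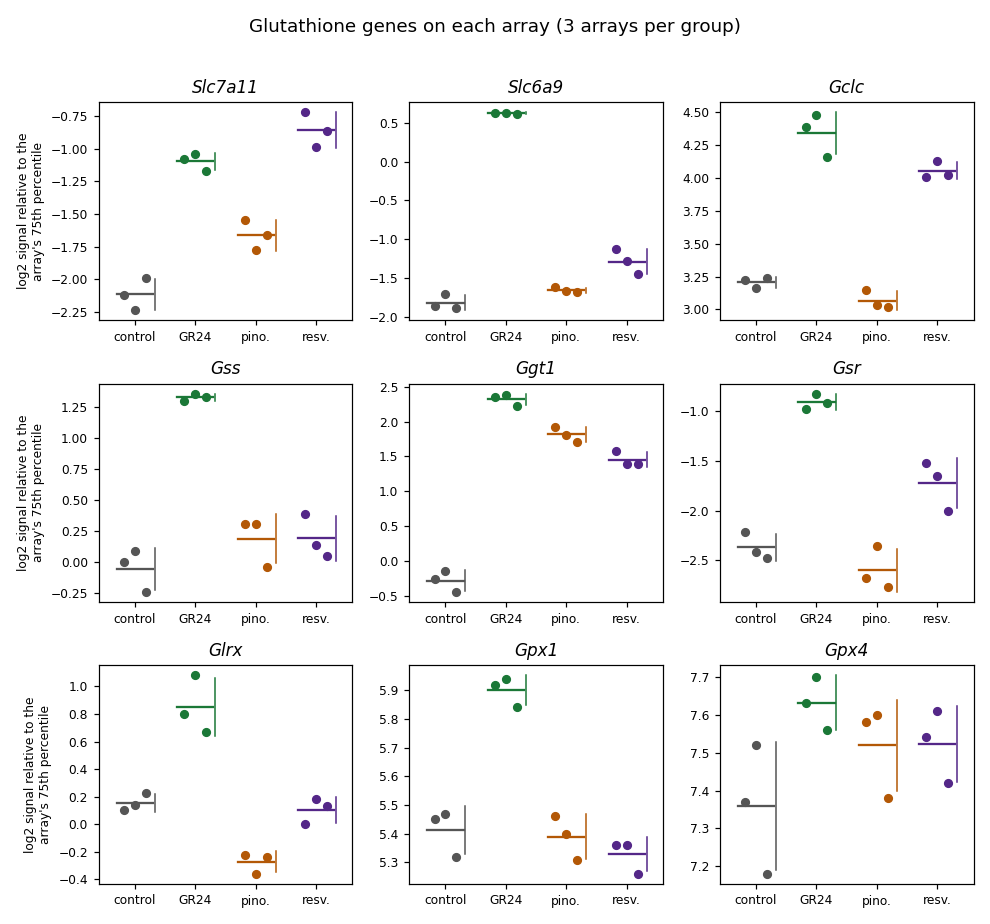
Level of each of the 9 genes on each array (log2 of the signal relative to the 75th percentile of the array), by treatment. Each panel has its own scale; points are arrays, 3 per group, horizontal bars are group means and thin vertical lines reach 1 SD to each side; the GR24 arrays lie above the control arrays for every gene, while the groups overlap for *Gpx4* in every other pairing.

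The supply of cystine rests on *Slc7a11*, which encodes the transport subunit of the exchanger that brings in cystine and lets out glutamate. Its level was -2.12, -2.24 and -1.99 on the control arrays, -1.08, -1.04 and -1.17 with GR24, -1.55, -1.78 and -1.66 with pinosylvin, and -0.72, -0.99 and -0.86 with resveratrol (SD 0.065 to 0.14). No group overlapped another, and the order from high to low was resveratrol, GR24, pinosylvin, control. Against the control it was 2.03-fold higher with GR24 (log2 1.02, SE 0.095, adjusted p 6.41e-06), 1.37-fold with pinosylvin (log2 0.45, adjusted p 0.00892) and 2.40-fold with resveratrol (log2 1.26, adjusted p 2.21e-05). It is the only one of the 9 genes whose mean was highest with resveratrol. GR24 minus resveratrol was -0.24 (interval -0.451 to -0.0268, adjusted p 0.0587), which passed the threshold with the replicate number as a block (adjusted p 0.0294). A further probe of the gene was well above background on only 1 GR24 array and 1 resveratrol array and was not tested.

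Other carriers and enzymes also provide cysteine. Of 9 genes listed for cysteine and cystine supply, 7 were tested, and 4 were higher and 1 lower with GR24, 2 higher and 1 lower with pinosylvin, and 3 higher and 1 lower with resveratrol. With the replicate block or the slide as a block 4 were higher with pinosylvin. With the slide as a block 5 were higher with resveratrol. *Slc7a11* itself is among those higher with each compound. These counts, and those of the lists below, are to be read against the shares of all tested probes: 31.5% higher and 25.5% lower with GR24, 8.28% and 8.27% with pinosylvin, and 7.99% and 8.99% with resveratrol. Lists of so few genes were not tested against these shares. Those higher with GR24 were *Slc7a11*, *Slc3a2*, *Slc1a4* and *Slc38a2*. *Cth*, which makes cysteine from cystathionine, was lower with GR24, by -0.92 (smaller with normexp and in the deposited values, -0.36 to -0.53, adjusted p up to 0.0354). With pinosylvin *Slc38a2* was higher beside *Slc7a11*, a call lost with no filter (adjusted p 0.0801) and without control replicate 1 (0.0701) or 2 (0.0574) or pinosylvin replicate 1 (0.0538) or 3 (0.0711). *Slc1a5* was lower with pinosylvin, which was lost with no filter (0.0524), with only the arrays compared (0.0706) and without control replicate 1 (0.0611). With resveratrol *Slc1a4* and *Slc38a2* were higher beside *Slc7a11*, and *Slc38a2* was lost with no filter (0.107) and without any 1 of the control or resveratrol arrays (0.051 to 0.0984). *Cth* was lower with resveratrol in the fit as given, and not past the threshold under 10 of 27 alternatives. Those were quantile normalization (0.165), both normexp settings (0.196 and 0.33), the deposited values (0.347), no filter (0.0817), trend and robust settings (0.0516), and no control replicate 1 (0.0705) or 2 (0.101) or resveratrol replicate 1 (0.0927) or 3 (0.0945). *Slc3a2*, which encodes the heavy chain that pairs with the product of *Slc7a11*, was 2.33-fold higher with GR24 (log2 1.22, SE 0.10, adjusted p 2.88e-06). Its difference was 0.18 with pinosylvin (interval -0.0425 to 0.412, adjusted p 0.268) and 0.24 with resveratrol (interval 0.0135 to 0.468, adjusted p 0.146), with overlap between the arrays. With the replicate block both passed (adjusted p 0.0109 and 0.0032). *Slc1a4*, a carrier of alanine, serine and cysteine, was 4.80-fold higher with GR24 (log2 2.26, SE 0.17, adjusted p 1.44e-06) and 2.02-fold higher with resveratrol (log2 1.01, adjusted p 0.00269; 0.61 and 0.68 with normexp before the 75th percentile or quantile normalization, adjusted p 0.0049 and 0.00264). With pinosylvin its arrays overlapped those of the control, and the difference was 0.0066 (interval -0.377 to 0.390, adjusted p 0.989).

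Glycine, the last amino acid to be joined, enters through *Slc6a9*, the glycine transporter GlyT1. Its level was -1.86, -1.70 and -1.89 on the control arrays, 0.63, 0.63 and 0.61 with GR24, -1.62, -1.66 and -1.68 with pinosylvin, and -1.13, -1.28 and -1.45 with resveratrol (SD 0.012 to 0.16). The GR24 arrays stood far above the rest, then came resveratrol, pinosylvin and control, with no overlap between any groups. GR24 raised it 5.44-fold (log2 2.44, SE 0.085, adjusted p 5.07e-09) and resveratrol 1.44-fold (log2 0.53, adjusted p 0.00188). The pinosylvin and control means, neighbours in that order, differed by 0.16 (interval -0.0288 to 0.348, adjusted p 0.246). The other probe of the gene gave 2.50 with GR24 (SE 0.095, adjusted p 8.79e-09) and 0.69 with resveratrol (adjusted p 0.000749), and with pinosylvin it passed the threshold at 0.40 (adjusted p 0.0165).

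Glutamate is carried into cells by other transporters. *Slc1a3*, a glutamate transporter, fell 5.14-fold with GR24 (log2 -2.36, SE 0.096, adjusted p 1.34e-08) and 1.77-fold with resveratrol (log2 -0.82, adjusted p 0.000276), while with pinosylvin it differed by 0.09 (interval -0.124 to 0.302, adjusted p 0.609). Its other probe gave -2.07 with GR24 (adjusted p 3.07e-08), -0.68 with resveratrol (adjusted p 0.000813) and 0.17 with pinosylvin (adjusted p 0.268). All 3 GR24 arrays and all 3 resveratrol arrays lay below the control arrays, and the pinosylvin arrays overlapped them.

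Synthesis starts with *Gclc*, which encodes the catalytic part of the ligase that joins glutamate to cysteine. Its level was 3.22, 3.16 and 3.24 on the control arrays, 4.39, 4.48 and 4.16 with GR24, 3.15, 3.03 and 3.02 with pinosylvin, and 4.01, 4.13 and 4.02 with resveratrol (SD 0.042 to 0.16). GR24 and resveratrol arrays were high and control and pinosylvin arrays low, and all pinosylvin arrays lay below all control arrays. It was 2.20-fold higher with GR24 (log2 1.14, SE 0.085, adjusted p 1.26e-06) and 1.80-fold higher with resveratrol (log2 0.85, adjusted p 0.00011). With pinosylvin the difference was -0.14 (interval -0.328 to 0.0505, adjusted p 0.323). GR24 was above resveratrol by 0.29 (SE 0.085, adjusted p 0.0158), a call lost without GR24 replicate 1 (adjusted p 0.0565) or 2 (0.0659), or without resveratrol replicate 1 (0.0518) or 3 (0.0506). It was also lost with no filter on dim probes (adjusted p 0.0534) and with only the 6 arrays compared (0.0571). *Gclm*, the modifier subunit of the same enzyme, was well above background on 1 array of each group and was not tested.

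*Gss* encodes glutathione synthetase, which adds the glycine. Its level was 0.00, 0.09 and -0.24 on the control arrays, 1.3, 1.36 and 1.33 with GR24, 0.31, 0.31 and -0.04 with pinosylvin, and 0.39, 0.14 and 0.05 with resveratrol (SD 0.029 to 0.20). Only the GR24 arrays lay apart, and the control, pinosylvin and resveratrol arrays overlapped. GR24 raised it 2.61-fold (log2 1.38, SE 0.13, adjusted p 5.37e-06). The difference was 0.25 with pinosylvin (interval -0.0349 to 0.525, adjusted p 0.23) and 0.25 with resveratrol (interval -0.0328 to 0.527, adjusted p 0.229). So both tested genes of the synthesis list, of 3 listed, were higher with GR24, 1 with resveratrol and 0 with pinosylvin.

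*Ggt1* encodes gamma-glutamyltransferase, the surface enzyme that opens extracellular glutathione and starts the return of its cysteine to the cell. Its level was -0.26, -0.14 and -0.45 on the control arrays, 2.36, 2.38 and 2.22 with GR24, 1.93, 1.81 and 1.71 with pinosylvin, and 1.58, 1.39 and 1.39 with resveratrol (SD 0.084 to 0.15). Every array of every compound was far above the control arrays, in the order GR24, pinosylvin, resveratrol, and no groups overlapped. It was 6.08-fold higher with GR24 (log2 2.60, SE 0.097, adjusted p 7.95e-09), 4.29-fold with pinosylvin (log2 2.10, adjusted p 7.24e-07) and 3.33-fold with resveratrol (log2 1.74, adjusted p 3.55e-06). Each neighbour in that order differed past the threshold, GR24 from pinosylvin by 0.50 (adjusted p 0.0012) and pinosylvin from resveratrol by 0.36 (adjusted p 0.0316), a call lost under 6 of 27 alternatives (adjusted p up to 0.107), 4 of them with a pinosylvin or resveratrol array left out. The other probe of the gene gave 2.71, 2.34 and 1.75 against the control (adjusted p 9.16e-09, 5.26e-07 and 5.06e-06).

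Of 14 genes listed for the gamma-glutamyl cycle and glutathione breakdown, 10 were tested. With GR24, 2 were higher (*Ggt1* and *Ggct*) and 2 lower (*Ggt7* and *Dpep2*), with pinosylvin 3 were higher (*Ggt1*, *Ggct* and *Oplah*) and 0 lower, and with resveratrol 1 was higher (*Ggt1*) and 0 lower, or 3 higher and 1 lower with the replicate block. With GR24, 4 were higher with the slide as a block and 4 lower within slide 1, so the counts do not set the list apart from the shares of all probes. *Ggt1* is counted for each compound. *Ggct* encodes gamma-glutamylcyclotransferase, which splits gamma-glutamyl dipeptides inside the cell. It was 2.02-fold higher with GR24 (log2 1.02, SE 0.15, adjusted p 0.000163) and 2.11-fold higher with pinosylvin (log2 1.08, adjusted p 0.000684). With resveratrol the difference was 0.35 (interval 0.0222 to 0.677, adjusted p 0.143), which passed with the replicate block (adjusted p 0.0151).

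*Gsr* encodes glutathione reductase, which returns oxidised glutathione to the reduced form. Its level was -2.22, -2.42 and -2.48 on the control arrays, -0.98, -0.82 and -0.92 with GR24, -2.68, -2.36 and -2.77 with pinosylvin, and -1.52, -1.65 and -2 with resveratrol (SD 0.08 to 0.25). The GR24 arrays were highest and the resveratrol arrays next, each clear of the others, while control and pinosylvin arrays overlapped. GR24 raised it 2.76-fold (log2 1.47, SE 0.14, adjusted p 7.89e-06) and resveratrol 1.57-fold (log2 0.65, adjusted p 0.0101). The resveratrol difference was smaller with normexp background correction and the 75th percentile (0.42, adjusted p 0.0271). Pinosylvin minus control was -0.23 (interval -0.543 to 0.0815, adjusted p 0.318).

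*Glrx* encodes glutaredoxin 1, which removes glutathione from proteins at the expense of reduced glutathione. Its level was 0.10, 0.14 and 0.23 on the control arrays, 0.80, 1.08 and 0.67 with GR24, -0.22, -0.36 and -0.24 with pinosylvin, and 0.00, 0.18 and 0.13 with resveratrol (SD 0.067 to 0.21). The GR24 arrays were above all others and the pinosylvin arrays below all others, while the control and resveratrol arrays overlapped. It was 1.62-fold higher with GR24 (log2 0.69, SE 0.10, adjusted p 0.000181), by 0.82 within slide 1 and 0.44 within slide 2. With pinosylvin it was 1.34-fold lower (log2 -0.42, SE 0.10, adjusted p 0.0175), and this call was lost with no filter on dim probes (adjusted p 0.0624), within slide 1 (0.07) and without control replicate 3 (0.0589) or pinosylvin replicate 2 (0.0699). Resveratrol minus control was -0.05 (interval -0.279 to 0.175, adjusted p 0.822).

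The recycling list held 5 genes, of which 4 were tested: *Gsr* and *Glrx* were higher with GR24, *Glrx* was lower with pinosylvin, and *Gsr* was higher with resveratrol. The other 2 are glutaredoxins tied to iron-sulphur clusters, and in the fit as given neither passed the test with a compound. *Glrx3* differed from the control by -0.05 with GR24 (interval -0.169 to 0.0733), -0.11 with pinosylvin (interval -0.227 to 0.0156) and -0.17 with resveratrol (interval -0.289 to -0.0465, adjusted p 0.0619). *Glrx5* differed by 0.19 with GR24 (interval -0.0524 to 0.439), -0.01 with pinosylvin (interval -0.257 to 0.235) and 0.30 with resveratrol (interval 0.0581 to 0.549, adjusted p 0.091). *Glrx3* with resveratrol, *Glrx5* with GR24 and *Glrx5* with resveratrol each passed under 6 of 27 alternatives. Among these was the replicate block (adjusted p 0.0299, 0.0217 and 0.00766 in that order). For *Glrx5* with GR24 they included slide 1 alone (0.0478) and the deposited values (0.0267). A dimmer probe of *Glrx5* gave 0.08, -0.16 and 0.07 with GR24, pinosylvin and resveratrol (SE 0.48, adjusted p 0.908, 0.883 and 0.958).

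**Figure D2:**
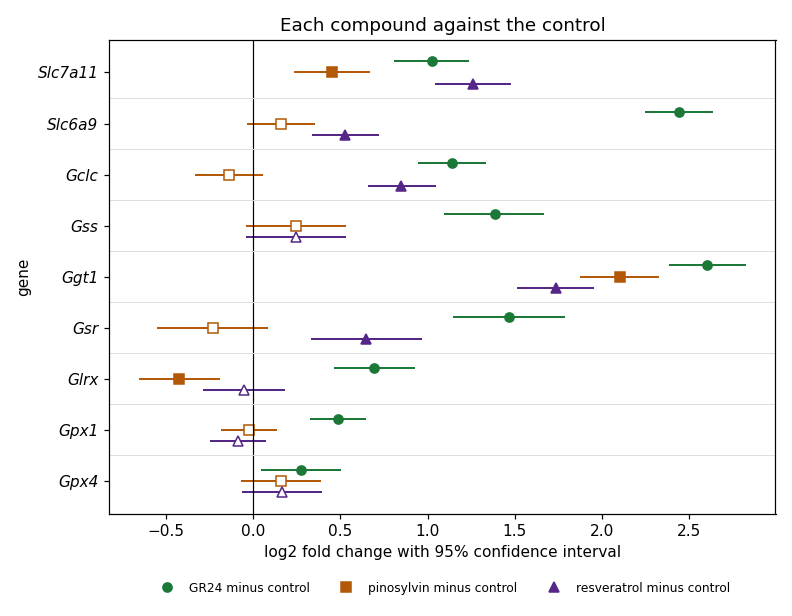
Difference of each of the 9 genes between each compound and the control (log2 of the fold change, 3 arrays per group). Markers are fitted differences, lines are 95% confidence intervals, and filled markers have an adjusted p under 0.05; *Ggt1* is filled for all 3 compounds at 1.74 to 2.60, and *Glrx* lies at 0.69 with GR24 and at -0.42 with pinosylvin.

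Glutathione is spent by peroxidases, of which *Gpx1* encodes the cytosolic enzyme that reduces hydrogen peroxide. Its level was 5.45, 5.47 and 5.32 on the control arrays, 5.92, 5.94 and 5.84 with GR24, 5.46, 5.40 and 5.31 with pinosylvin, and 5.36, 5.36 and 5.26 with resveratrol (SD 0.051 to 0.083). The GR24 arrays lay above all others, and the control, pinosylvin and resveratrol arrays overlapped. GR24 raised it 1.40-fold (log2 0.49, SE 0.069, adjusted p 0.000139), and its other probe gave 0.52 (SE 0.10, adjusted p 0.00115). Pinosylvin minus control was -0.02 (interval -0.178 to 0.130, adjusted p 0.879) and resveratrol minus control -0.09 (interval -0.239 to 0.0687, adjusted p 0.486), and the other probe gave -0.01 and -0.05 (adjusted p 0.958 and 0.825).

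*Gpx4* encodes the peroxidase that reduces lipid hydroperoxides in membranes. Its level was 7.37, 7.52 and 7.18 on the control arrays, 7.63, 7.70 and 7.56 with GR24, 7.58, 7.60 and 7.38 with pinosylvin, and 7.54, 7.61 and 7.42 with resveratrol (SD 0.072 to 0.17). The GR24 arrays lay just above the control arrays, and every other pair of groups overlapped. It was 1.21-fold higher with GR24 (log2 0.27, SE 0.10, adjusted p 0.0395), and no neighbours in the order GR24, resveratrol, pinosylvin, control differed past the threshold. The call was lost without control replicate 1 (adjusted p 0.0758) or 3 (0.145), without GR24 replicate 1 (0.0864) or 2 (0.119), without resveratrol replicate 1 (0.0533), with normexp and the 75th percentile (0.0606), with no filter (0.105) and with only the arrays compared (0.0794). In the deposited normalized values the difference was 0.44 (adjusted p 0.00117), and the other probe of the gene gave 0.33 with GR24 (SE 0.098, adjusted p 0.0134). The difference was 0.16 with pinosylvin (interval -0.063 to 0.385, adjusted p 0.334) and 0.16 with resveratrol (interval -0.0595 to 0.388, adjusted p 0.328), and by the other probe 0.20 and 0.26 (adjusted p 0.2 and 0.102). With the replicate block, pinosylvin (adjusted p 0.0479) and resveratrol (adjusted p 0.0453) passed at the same size, and neither passed under another alternative. Over the alternatives the difference was 0.029 to 0.24 with pinosylvin (adjusted p up to 0.879) and 0.075 to 0.25 with resveratrol (adjusted p up to 0.673).

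Of 8 glutathione peroxidase genes, 5 were tested, and the family did not move as one. With GR24, 2 were higher (*Gpx1* and *Gpx4*) and 3 lower (*Gpx3*, *Gpx7* and *Gpx8*), with pinosylvin 2 were higher (*Gpx3* and *Gpx8*) and 1 lower (*Gpx7*), and with resveratrol 1 was higher (*Gpx3*) and 1 lower (*Gpx7*). *Gpx3*, the secreted enzyme, fell 1.20-fold with GR24 (log2 -0.26, SE 0.072, adjusted p 0.00989), which was not past the threshold with the percentile taken over spots (-0.16, adjusted p 0.0537). It rose 1.52-fold with pinosylvin (log2 0.60, adjusted p 0.000294) and 1.49-fold with resveratrol (log2 0.58, adjusted p 0.000425). *Gpx7*, an enzyme of the endoplasmic reticulum, was lower with each compound, by -1.07 with GR24 (SE 0.095, adjusted p 4.58e-06), -0.48 with pinosylvin (adjusted p 0.00665) and -0.47 with resveratrol (adjusted p 0.00719). *Gpx8*, also of the endoplasmic reticulum, was lower with GR24 by -0.39 (SE 0.063, adjusted p 0.000346) and higher with pinosylvin by 0.29 (adjusted p 0.0104). Its pinosylvin call was lost within slide 1 (adjusted p 0.0508), with no filter (0.0586) and with only the arrays compared (0.0678). With resveratrol it differed by 0.17 (interval 0.0311 to 0.311, adjusted p 0.0949), which passed with the replicate block (adjusted p 0.0396).

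Beyond the 9 genes, the pathway lists held 59 others, of which 55 had a probe and 42 were tested. With GR24, 16 were higher and 8 lower (median difference 0.16), with pinosylvin 7 were higher and 3 lower (median 0.13), and with resveratrol 7 were higher and 3 lower (median 0.14). Over all tested probes the medians were 0.027, 0.054 and 0.010, and the shares higher and lower were those given above for each compound. With the replicate block, 13 were higher with pinosylvin, and 16 were higher and 6 lower with resveratrol. Without control replicate 1 or 3, or resveratrol replicate 1 or 2, 4 were higher with resveratrol in place of 7. Lists of further steps made up part of these. Of 11 genes of selenoprotein synthesis, which the selenium-containing peroxidases need, 10 were tested: 5 were higher with GR24 (*Pstk*, *Secisbp2*, *Secisbp2l*, *Sepsecs* and *Eefsec*) and 1 lower (*Sephs1*), 1 was higher with pinosylvin (*Scly*) and 2 with resveratrol (*Scly* and *Pstk*). The pinosylvin call of *Scly* was lost under 9 alternatives (adjusted p 0.0511 to 0.117), among them no control replicate 1 or 3, GR24 replicate 2, pinosylvin replicate 1 or 2, or resveratrol replicate 2. Its resveratrol call was lost without control replicate 1 (0.05) or 3 (0.0842) or resveratrol replicate 1 (0.104) or 2 (0.0817), with no filter (0.0783) and with only the arrays compared (0.0942). The numbers were 2 with pinosylvin and 4 with resveratrol with the replicate block. Of 4 genes of glutathione-dependent aldehyde removal, all tested, 2 were higher with GR24 (*Adh5* and *Hagh*), and 0 passed with either stilbene, or 1 with each with the replicate block. *Hagh* was lost without control replicate 3 (0.137) or GR24 replicate 1 (0.104) or 2 (0.113), with no filter (0.0875) and with only the arrays compared (0.0551). Of 4 mitochondrial carriers linked to glutathione, 3 were tested: all 3 were higher with GR24 (*Slc25a39*, *Slc25a10* and *Slc25a11*), where *Slc25a11* was lost without control replicate 3 (0.0586) or GR24 replicate 1 (0.0551), and *Slc25a10* was lower with pinosylvin. In the fit as given 0 were higher with pinosylvin, and 2 with the replicate block or the slide as a block. With pinosylvin *Slc25a39* differed by 0.24 (interval 0.0558 to 0.418, adjusted p 0.076). *Slc25a39* was higher with resveratrol, which was lost without control replicate 1 (0.0543) or 3 (0.0549) or resveratrol replicate 1 (0.07) or 2 (0.0537), with no filter (0.0683), with only the arrays compared (0.0697) and with the mean over its probes (0.0824). Its other probe passed with GR24 (0.62, adjusted p 0.00494) and not with pinosylvin (0.30, adjusted p 0.227) or resveratrol (0.31, adjusted p 0.21).

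Compared directly with pinosylvin, GR24 gave higher levels of 8 of the 9 genes and lower levels of 0, where 29.6% of all tested probes were higher and 26.8% lower. The share of the 9 genes that was higher exceeds that of all probes, and the median difference was 1.12, against -0.0031. The study listed *Gclc*, *Ggt1*, *Glrx*, *Gpx4*, *Slc6a9* and *Slc7a11* as raised by GR24 on these same GR24 arrays. The count is therefore not independent evidence of their direction. On the arrays compared, all 11 myotube markers were lower with GR24 than with pinosylvin, *Myog* by -6.56 (adjusted p 4.24e-10), *Acta1* by -3.89 (2.41e-10) and *Ckm* by -2.83 (6.41e-08), *Cfd* was lower by -0.46 (0.00322), and *Cd68* was higher by 2.35 (1.25e-06). *Myod1*, well above background on no GR24 array, was at least 1.69-fold lower, a bound for this background correction only. The part of these markers in the result was not tested. The differences ran from 0.50 for *Ggt1* (SE 0.097, adjusted p 0.0012) and 0.51 for *Gpx1* (adjusted p 0.000105) to 1.70 for *Gsr* (adjusted p 3e-06) and 2.28 for *Slc6a9* (SE 0.085, adjusted p 1.1e-08). *Slc7a11*, *Glrx*, *Gss* and *Gclc* lay between, at 0.57 (adjusted p 0.00048), 1.12 (6.1e-06), 1.14 (2.48e-05) and 1.28 (6.27e-07). *Gpx4* alone did not pass, at 0.11 (interval -0.112 to 0.335, adjusted p 0.381), and its arrays overlapped. It passed with quantile normalization (0.34, adjusted p 0.0029), with normexp and quantile normalization (0.36, adjusted p 0.00214) and in the deposited normalized values (0.40, adjusted p 0.00265). Within slide 1 the 8 differences ran from 0.50 to 2.28, and within slide 2 from 0.50 to 2.30.

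Against resveratrol, 7 of the 9 genes were higher with GR24 and 0 were lower, where 27.4% of all tested probes were higher and 23.9% lower. This share too exceeds that of all probes, and the median difference was 0.75, against 0.024. The study's list of genes raised by GR24 rests on these same GR24 arrays, so this count is not independent evidence either. Of the 11 myotube markers, 8 were lower with GR24 than with resveratrol, *Myog* by -5.32 (adjusted p 2.23e-09), *Acta1* by -3.65 (6.86e-10) and *Ckm* by -1.54 (6.44e-06), and *Cd68* was higher by 2.52 (9.61e-07), and their part was not tested. *Myod1* is among the 8, though it was well above background on no GR24 array and on only 2 resveratrol arrays. Its bound, 0.861-fold, does not place it lower with GR24. The 7 genes were *Slc6a9* at 1.92 (SE 0.085, adjusted p 5.15e-08), *Gss* at 1.14 (adjusted p 3.1e-05), *Ggt1* at 0.87 (adjusted p 3.3e-05), *Gsr* at 0.82 (adjusted p 0.00065), *Glrx* at 0.75 (adjusted p 0.000136), *Gpx1* at 0.57 (adjusted p 5.66e-05) and *Gclc* at the 0.29 given above. *Gpx4* differed by 0.11 (interval -0.116 to 0.332, adjusted p 0.415), and it passed in the deposited normalized values (0.24, adjusted p 0.0403) and with the percentile over spots (0.22, adjusted p 0.0455). *Slc7a11*, the gene with a negative difference, did not pass. Within slide 1 the 7 differences ran from 0.36 for *Gclc* to 1.84 for *Slc6a9*, and within slide 2 from 0.14 to 2.07.

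Pinosylvin and resveratrol, which differ by the further hydroxyl of resveratrol, differed in 6 of the 9 genes. Pinosylvin gave the higher level of 1 gene, *Ggt1*, and the lower level of 5, where 7.68% of all tested probes were higher and 6.85% lower. The share that was lower exceeds that of all probes, and the median difference was -0.37, against 0.022. With the replicate block these shares of all probes were 14.4% and 11.6%. On the same arrays 7 of 11 myotube markers were higher with pinosylvin than with resveratrol, among them *Myog* by 1.24 (adjusted p 0.000375) and *Ckm* by 1.28 (0.00021), as was *Cfd* by 0.39 (0.0342), and their part was not tested. *Gclc* was lower with pinosylvin by -0.99 (SE 0.085, interval -1.18 to -0.799, adjusted p 5.88e-05), *Gsr* by -0.88 (SE 0.14, interval -1.19 to -0.567, adjusted p 0.00239) and *Slc7a11* by -0.81 (SE 0.095, interval -1.02 to -0.596, adjusted p 0.000389). With normexp and the 75th percentile *Gsr* was lower by less (-0.54, adjusted p 0.00784). For these 3 genes all pinosylvin arrays lay below all resveratrol arrays. *Slc6a9* was lower by -0.37 (SE 0.085, interval -0.557 to -0.180, adjusted p 0.0164) and *Glrx* by -0.37 (SE 0.10, interval -0.599 to -0.145, adjusted p 0.0357), while *Ggt1* was higher by 0.36 (SE 0.097, interval 0.148 to 0.579, adjusted p 0.0316). Their arrays did not overlap either, but without pinosylvin replicate 2, without resveratrol replicate 2 or with no filter on dim probes none of these 3 passed, which left 3 genes in place of 6. The adjusted p without pinosylvin replicate 2 and without resveratrol replicate 2 was 0.0562 and 0.0549 for *Slc6a9*, 0.0888 and 0.107 for *Ggt1*, and 0.125 and 0.122 for *Glrx*. *Slc6a9* also missed without resveratrol replicate 1 (0.0546), *Ggt1* without pinosylvin replicate 1 (0.106) or resveratrol replicate 3 (0.103), and *Glrx* without either of these (0.0666 and 0.0998), GR24 replicate 1 (0.053) or pinosylvin replicate 3 (0.0697). With only the arrays compared *Slc6a9* (0.0633) and *Ggt1* (0.0601) missed, and within slide 1 *Glrx* did (0.0895). The other probe of *Ggt1* gave 0.59 (adjusted p 0.00384), and that of *Slc6a9* gave -0.29 and did not pass (adjusted p 0.0676).

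The other 3 genes did not pass between the stilbenes, which does not show that the compounds act alike on them. The difference was -0.0021 for *Gss* (interval -0.282 to 0.278, adjusted p 0.995), 0.06 for *Gpx1* (interval -0.0928 to 0.215, adjusted p 0.64) and -0.0035 for *Gpx4* (interval -0.227 to 0.22, adjusted p 0.991; down to -0.20 over the alternatives, never past the threshold). Within slide 1 and within slide 2, pinosylvin minus resveratrol was -0.81 and -0.80 for *Slc7a11*, -0.98 and -1.01 for *Gclc*, -0.93 and -0.77 for *Gsr*, -0.44 and -0.23 for *Slc6a9*, -0.38 and -0.36 for *Glrx*, and 0.39 and 0.32 for *Ggt1*.

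**Figure D3:**
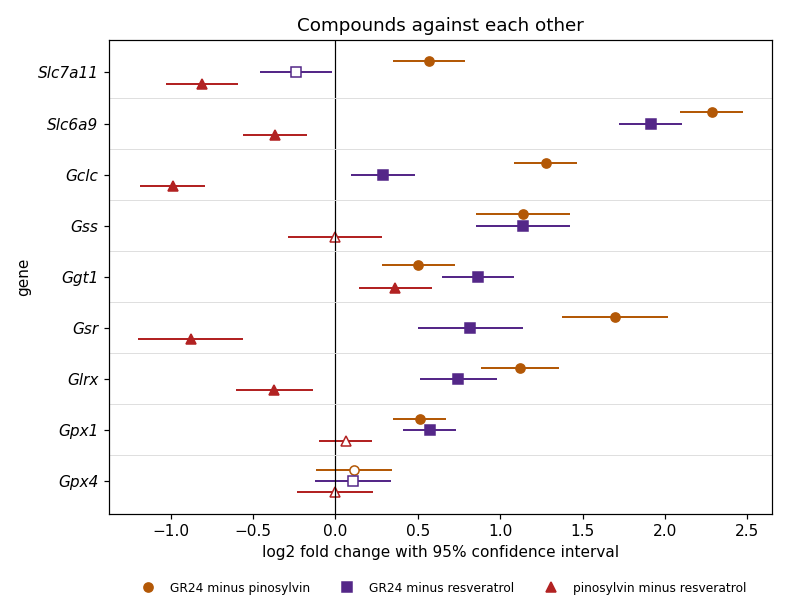
Difference of each of the 9 genes between pairs of compounds (log2 of the fold change, 3 arrays per group). Markers are fitted differences, lines are 95% confidence intervals, and filled markers have an adjusted p under 0.05; between the stilbenes, *Gclc*, *Gsr* and *Slc7a11* lie at -0.99 to -0.81 and *Ggt1* at 0.36.

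The genes with the most similar differences over the 3 compounds were sought among 10732 named genes, by the mean absolute difference of the log2 values. For *Gclc*, at 1.14, -0.14 and 0.85 with GR24, pinosylvin and resveratrol, the nearest was *Ascl3* (1.11, -0.02 and 0.85), at a mean distance of 0.049. It was followed by *Prdx1* (1.23, 0.05 and 0.74) and *Kitlg* (1.36, 0.01 and 0.88), each at 0.13. For *Slc7a11*, at 1.02, 0.45 and 1.26, they were *Spdya* (distance 0.11), *Kcng1* (0.14) and *Rlig1* (0.15). *Ggt1*, at 2.60, 2.10 and 1.74, had no gene as near: *Fbxo36* was at 0.29, *Slc11a1* at 0.33 and *Gstp1* at 0.37. The 9 neighbours named were again among the nearest 3 under 13 (*Rlig1*) to 25 (*Slc11a1*) of 27 alternatives. The distances use 3 differences that share the control arrays and carry no test.

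Promoters were taken from RefSeq on the rat assembly GRCr8, from 250 bases before to 50 bases after the start of a gene. Of the 9 genes, 8 had an entry, with 10 entries in all, and *Gsr* had none. Both strands were searched for the core of the antioxidant response element, TGACNNNGC, and for a core of the C/EBP-ATF response element, TGATGNAA. Among all 33469 promoters of this length, 12.1% held the first and 3.98% the second. No entry of the 8 genes held either, so these letters are not in this window. The sequences of *Slc7a11*, *Gclc* and *Ggt1* are shown as examples: *Slc7a11* and *Gclc* differed between the stilbenes, and *Ggt1* was higher with all 3 compounds. They lie at chr2:136668215-136668514 on the minus strand, chr8:87510226-87510525 on the plus strand and chr20:13095055-13095354 on the minus strand, and no base is in capitals because no motif was found.
Slc7a11: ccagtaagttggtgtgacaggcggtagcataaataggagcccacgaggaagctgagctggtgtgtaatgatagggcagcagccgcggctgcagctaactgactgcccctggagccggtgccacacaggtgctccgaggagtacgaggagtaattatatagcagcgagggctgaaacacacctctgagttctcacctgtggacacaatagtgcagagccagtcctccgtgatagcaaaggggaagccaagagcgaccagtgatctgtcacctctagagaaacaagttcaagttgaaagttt
Gclc: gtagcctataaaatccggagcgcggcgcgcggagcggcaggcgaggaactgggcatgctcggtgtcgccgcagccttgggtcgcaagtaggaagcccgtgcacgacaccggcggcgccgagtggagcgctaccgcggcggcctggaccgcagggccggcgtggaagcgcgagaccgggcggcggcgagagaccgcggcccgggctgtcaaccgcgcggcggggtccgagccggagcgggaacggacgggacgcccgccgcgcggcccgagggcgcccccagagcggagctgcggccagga
Ggt1: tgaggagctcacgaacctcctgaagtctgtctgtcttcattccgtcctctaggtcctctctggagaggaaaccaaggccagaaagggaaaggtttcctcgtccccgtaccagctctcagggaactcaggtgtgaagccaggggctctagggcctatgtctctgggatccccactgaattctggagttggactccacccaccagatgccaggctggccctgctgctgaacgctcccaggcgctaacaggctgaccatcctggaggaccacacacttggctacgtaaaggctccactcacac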

How the data were processed

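RNA of 12 cultures, 3 in each of 4 groups, was measured on 1-colour arrays. What the authors deposited for each array is the output of Agilent Feature Extraction 12.0.0.7. Its processed signal is a deposited intensity with background already removed within the array and arrays not yet normalized to each other. The same software marks signal well above background, saturation and outlier spots. A deposited table of normalized log2 values for the series served as an alternative. Controls were dropped, outlier-marked spots counted as missing, and replicate spots of a probe were averaged. Values were log2 of the signal minus the 75th percentile over the probes of the array. The percentile over probes was kept because it was used in earlier work on these data, and the percentile over spots was added as an alternative after the data were seen.

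To be tested, a probe had to be well above background on every array of some group. This held for 24279 of 45598 probes, 87.4% of them well above background on the full 12 arrays. All 12 arrays entered 1 fit of limma 3.58.1 in R 4.3.3, with a mean per group and eBayes, and p was adjusted by Benjamini-Hochberg over the tested probes, with a threshold of 0.05. Only the fit was tested on simulated data, with noise drawn independently for each array. That simulation lacked the correlation between arrays of the same replicate number that is given below. RefSeq accessions were matched to a gene table of GRCr8, which named 21109 probes (46.3%). Deviations from the group mean correlated between arrays of the same replicate number in every pair of groups, at 0.191 to 0.744, so the replicate number was also used as a block. Taken over the spots other than controls, and not over probes as in the scaling, the 75th percentile signal was 4045 to 5707 per array.

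The members, the pathway and marker lists and the rule for named genes were chosen with earlier results of these data known. The rule names the members, every listed gene past the threshold with a log2 difference of at least 1 in size against the control, every tested gene of synthesis, recycling and peroxidases, and 3 nearest genes each for *Gclc*, *Ggt1* and *Slc7a11*. A gene that this rule names is not reported here. Other pathway and marker genes were named after their values were seen, to spell out a count or a check of the cells. *Shmt1*, *Glrx2*, *Lrp8*, *Slc25a40*, *Mylpf* and *Plin1* had no probe by accession. Promoter sequences are from RefSeq. Where every array of a group was near background, a bound is given in place of a fold.

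As alternatives, arrays were normalized by quantiles, background was corrected by normexp (offset 50) before the 75th percentile or before quantiles, and the authors' deposited table was used. Further ones were no filter on dim probes, a stricter filter (well above background on the full 12 arrays), the percentile over the probes of that filter, outlier spots kept, only the 6 arrays compared, the replicate number as a block, the slide as a block, slide 1 alone, eBayes with trend and robust settings, the mean over the probes of a gene, and each array left out in turn.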

Additional observations from a re-analysis of the deposited data

How the results depend on the processing

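The differences of the 9 genes, the calls of the other pathway and marker genes against the control and the counts of each list were recomputed under 15 alternatives and with each of the 12 arrays left out in turn. Further probes, marker sums and marker differences between compounds were not. Against the control, *Ggt1*, *Slc7a11*, *Slc6a9*, *Gclc*, *Gss*, *Gsr*, *Glrx* and *Gpx1* stayed past the threshold with GR24 under all 27, as did *Ggt1* and *Slc7a11* with pinosylvin and *Slc7a11*, *Slc6a9*, *Gclc*, *Ggt1* and *Gsr* with resveratrol. With GR24 the count of genes past the threshold was 8 or 9, and *Gpx4* had differences of 0.18 to 0.44 and an adjusted p of 0.000983 to 0.145. The range of adjusted p was 0.00541 to 0.07 for *Glrx* with pinosylvin and 0.00081 to 0.0659 for *Gclc* between GR24 and resveratrol. Between the stilbenes it was 0.00411 to 0.0654 for *Slc6a9*, 0.00343 to 0.107 for *Ggt1* and 0.0121 to 0.125 for *Glrx*. With the mean over probes, *Slc6a9* passed with pinosylvin (0.28, adjusted p 0.0316). *Slc7a11* passed between GR24 and resveratrol with quantile normalization (-0.25, adjusted p 0.0473) and without resveratrol replicate 2 (-0.31, adjusted p 0.0324). The cause was not tested.

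Between pinosylvin and resveratrol the count of genes past the threshold was 3 in place of 6 with no filter on dim probes, where more probes are adjusted for, and 3 to 6 with an array left out. Small differences that did not pass changed sign. *Gss* between the stilbenes was 0.0028 with quantile normalization, 0.030 with normexp and the 75th percentile, 0.038 with normexp and quantile normalization, 0.039 in the deposited table, 0.044 within slide 1, 0.018 with the percentile over spots, and -0.074 to 0.12 with an array left out. *Gpx1* was -0.0095, -0.0022 and -0.0097 with quantile normalization, normexp with quantile normalization and the deposited table. *Gpx4* was 0.014 within slide 1, 0.017 with the percentile over spots, -0.057 to 0.067 with an array left out and as low as -0.20 with normexp and quantile normalization. *Gpx1* with pinosylvin against the control was -0.071 to 0.017 with an array left out. *Glrx3* with GR24 was 0.036, 0.050, 0.063 and 0.052 with quantile normalization, normexp with quantile normalization, the deposited table and the percentile over spots. With pinosylvin, *Glrx5* was 0.013 in the deposited table and -0.079 to 0.045 with an array left out. *Slc1a4* was -0.011 with the percentile over probes above background on all arrays, -0.049 within slide 1 and -0.18 to 0.14 with an array left out, and *Slc1a3* was -0.013 within slide 1 and -0.015 to 0.18 with an array left out. *Cdh5* with pinosylvin was -0.065 to 0.27 with an array left out. The cause was not tested.

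With the replicate block, *Gpx4* passed against the control with pinosylvin (0.16, adjusted p 0.0479) and resveratrol (0.16, adjusted p 0.0453), and *Slc7a11* between GR24 and resveratrol (-0.24, adjusted p 0.0294). The replicate block changed no other call of the 9 genes, and the slide as a block changed none.

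The numbers of all probes higher and lower moved by over 1.5 times in at least 1 direction in the comparisons without GR24. With pinosylvin they were 2010 and 2009, and 1026 and 1383 with no filter, 3954 and 2993 with the replicate block, 4031 and 3043 with the slide as a block, and 1083 and 1396 with only the arrays compared. With resveratrol they were 1941 and 2182, and 1070 and 1610, 3419 and 3350, 3524 and 3345, and 1215 and 1623 in the same order. Between the stilbenes they were 1864 and 1664, and 1072 and 903, 3507 and 2816, 3564 and 2879, and 1385 and 1180. Leaving out single arrays also moved them by over 1.5 times. The number higher with pinosylvin was 1250 without pinosylvin replicate 1 and 1236 without replicate 2, and that with resveratrol 1192 without resveratrol replicate 1 and 1285 without replicate 2. Between the stilbenes the number higher was 1224 and 1086 without pinosylvin replicate 1 or 2 and 1207 and 1104 without resveratrol replicate 2 or 3, and the number lower 1062 and 1030 without replicate 2 of pinosylvin or resveratrol. The percentile over spots moved the median of all probes from 0.0268 to 0.127 for GR24 minus control and from 0.0244 to 0.135 for GR24 minus resveratrol, where the share of calls that were higher went from 53.4% to 64.1%. The differences of the 9 genes with GR24 are to be read against that shift. The cause was not tested.

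Of the 42 other pathway genes tested, the number higher with pinosylvin was 4 to 13 in place of 7 and with resveratrol 4 to 17 in place of 7, and the number lower with resveratrol 2 to 6 in place of 3. With GR24 it was 14 to 21 higher in place of 16 and 7 to 10 lower in place of 8. Of 90 counts within single lists, not all of them printed, 78 stayed within 1 gene of the count in the fit as given, and the largest difference was 3 genes.

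Signal over background limits what can be said of dim genes. *Gclm*, *Cbs* and *Gpx2* were not well above background on all arrays of any group and were not tested. *Cbs* was so on 2 control arrays and on no other array, at -4.51, -4.37 and -4.70 with the control and -7.06, -6.66 and -6.61 with GR24, without overlap. *Slc7a11*, *Gclc*, *Gss*, *Gsr* and *Glrx* each rest on 1 tested probe. For *Slc7a11* and *Gsr*, whose levels lie below the 75th percentile, the GR24 differences of 1.02 and 1.47 were 0.73 and 1.11 with normexp and the 75th percentile. RNA levels do not give protein, enzyme activity or glutathione itself.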
